A study of Mus musculus with 6 samples.

Results

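The complement system was examined through 9 genes chosen by symbol, C1qa, C1qb, C1qc, C3, C3ar1, C5ar1, Cfb, Cfp and Serping1, out of 56092 gene symbols in the count table. All 9 were found. The cells were RAW264.7, a mouse macrophage line. The control libraries are labelled empty vector control (shNC) and the others Trem2 knockdown (shTrem2), with 3 libraries in each group. Both groups carried a lentiviral vector and had passed puromycin selection, both were given IL-4 (20 ng/mL, 24 hours), and both were then cultured for a further 24 hours with debris of TCMK-1 renal tubular epithelial cells. The methods list a non-targeting hairpin for the control and 2 hairpins against Trem2, without naming the one used for these libraries, and no library without IL-4 or without debris was analysed here. Nothing in the labels says whether the 3 libraries of a group came from separate cultures, so p-values measure the spread between libraries only.

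Complement is a cascade of plasma proteins that marks microbes and dying cells for uptake. C1q, built from the products of C1qa, C1qb and C1qc, binds apoptotic cells and immune complexes and starts the classical pathway, which the C1 inhibitor encoded by Serping1 restrains. C3 is the protein on which all pathways converge. Its fragment C3b joins factor B (Cfb) in the alternative pathway convertase, which properdin (Cfp) stabilizes. The small fragments C3a and C5a signal through the receptors C3ar1 and C5ar1. Macrophages make many of these proteins locally, and C1q is widely used as a marker of tissue-resident macrophages.

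The 6 libraries held between 16054486 and 19835186 estimated counts. The targeted gene was lower in shTrem2: Trem2 averaged 127 ± 15.4 CPM in the controls against 69.3 ± 9.41 CPM with the knockdown (SD, n = 3 each), where CPM is the count scaled to a common library size after TMM scaling. In the deposited FPKM the gap was wider, at 178 ± 28.5 against 41.7 ± 4.14 FPKM (SD, n = 3 each), so the remaining Trem2 level depends on the scale. Of 10 macrophage markers, 9 were detected, and their summed level lay between 5122 and 6048 CPM in shNC and between 10165 and 11317 CPM in shTrem2. Most of the gap was Lyz2, at 2802 against 7357 CPM on average, and Csf1r also rose, from 1058 to 1788 CPM. Of the 9 tested, 4 were higher and 1 was lower at an edgeR adjusted p under 0.05 and a fold change over 1.5. The shares of all tested genes were 9.46% and 12.4%. Itgam (466 against 270 CPM) and Adgre1 (126 against 85.4 CPM) were lower in shTrem2, with edgeR adjusted p = 8.43e-09 and 3.54e-05, so the sum does not describe each marker. The part of this difference in the complement results was not tested. Mertk had at most 3 counts in any library. Of the genes that IL-4 is known to induce in mouse macrophages, 6 were examined, and most of these were nearly absent in both groups. Arg1 had between 1 and 3 counts in every library, Chil3, Retnla and Ccl24 had 0, and only Mrc1 among the 6 was tested. Mrc1 rose, with 5 to 14 counts per library in shNC and 56 to 71 in shTrem2, a log2 fold change of 2.76 (edgeR adjusted p = 1.22e-05). The cells are called Arg1+ in the study, which measured Arg1 by other assays. It reported a higher Arg1 transcript level after IL-4 in RAW264.7 cells, and more Arg1+ cells by flow cytometry. In its knockdown lines it reported less Arg1 after IL-4. In these libraries the transcript was not above the floor of 3 counts in any. The reason for this difference between assays was not tested.

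C3 fell and Cfb rose by more than 1.5-fold after Trem2 knockdown, so the components of the alternative pathway convertase moved in opposite directions. The 95% interval of Cfb included 1.5-fold, while that of C3 lay wholly beyond it. Cfp and the C5a receptor gene C5ar1 were lower and the C3a receptor gene C3ar1 was higher, each by less than 1.5-fold. In bulk libraries, fewer cells that express a gene and less RNA per cell cannot be told apart. None of the C1q chains was detected, and Serping1 was at or next to the floor. Of the 9 genes, 5 passed the filter on low counts. Each of the 5 passed edgeR's quasi-likelihood test at an adjusted p under 0.05, as did 57.4% of the 13528 genes tested. With a fold change over 1.5 as well, 1 gene was higher in shTrem2, where the share of all tested genes was 9.46%, and 1 was lower, where it was 12.4%. With 5 genes tested, these counts are not read as a result about complement as a group. The groups did not overlap for any of the 5, as for 63.8% of all genes tested.

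**Figure D1:**
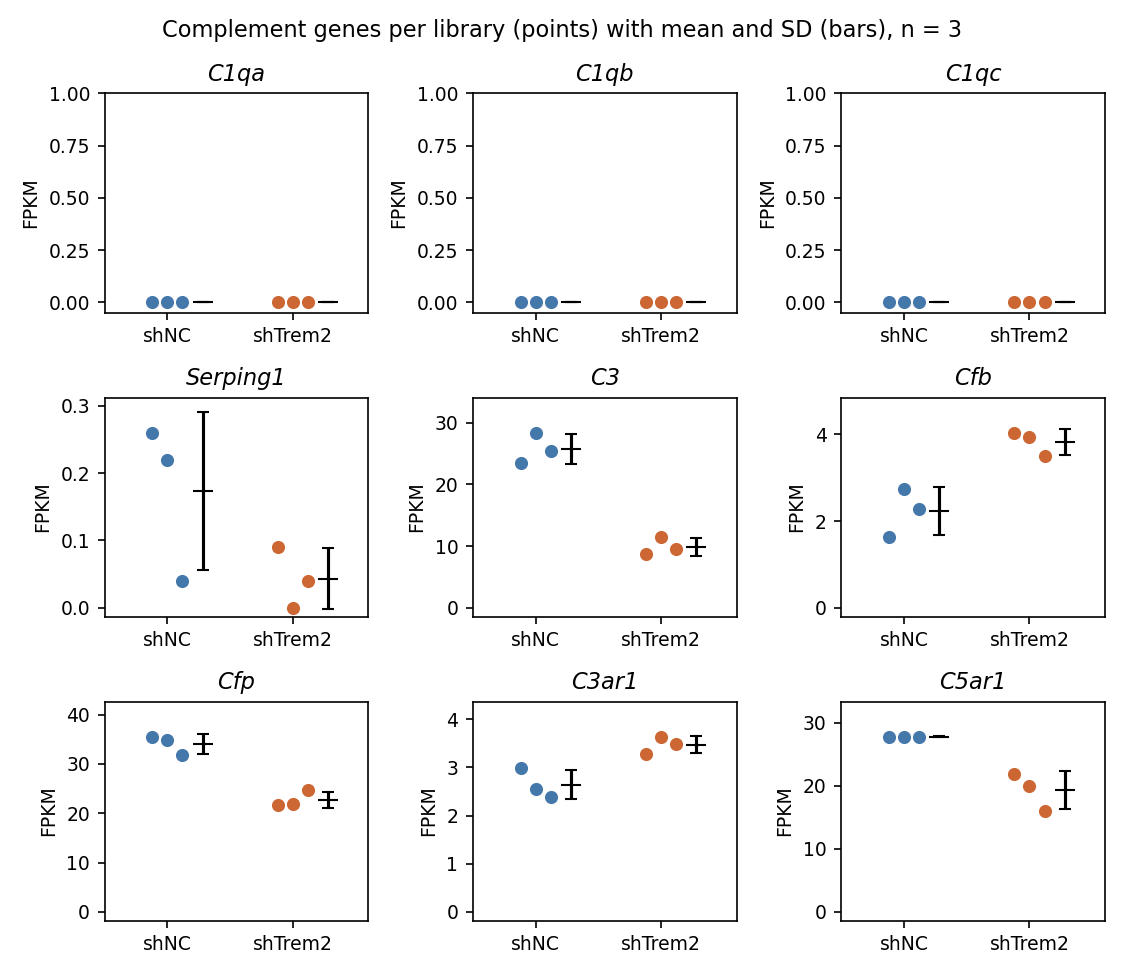
FPKM (fragments scaled to transcript length and library size, y axis, a separate scale in each panel) of the 9 complement genes in the 3 shNC and the 3 shTrem2 libraries, as points, with the mean and SD beside them. C1qa, C1qb and C1qc are at 0 in every library, C3, Cfp and C5ar1 are lower in shTrem2 without overlap, and Cfb and C3ar1 are higher without overlap.

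The promoters of C3 and C3ar1 are shown because these genes, a ligand precursor and the receptor of its fragment, moved in opposite directions. The window upstream of C5ar1 is shown because the transcript that starts at its end changed its share, as described with that gene. Each run holds the 250 bases before the RefSeq start in GRCm38.p6, on the minus strand, read 5′ to 3′. In the first pair, capitals mark matches to the motifs searched. In the C5ar1 window, they mark the 28 bases of a first exon that belongs to the other annotated transcripts of the gene.
C3 (chr17:57228137-57228386): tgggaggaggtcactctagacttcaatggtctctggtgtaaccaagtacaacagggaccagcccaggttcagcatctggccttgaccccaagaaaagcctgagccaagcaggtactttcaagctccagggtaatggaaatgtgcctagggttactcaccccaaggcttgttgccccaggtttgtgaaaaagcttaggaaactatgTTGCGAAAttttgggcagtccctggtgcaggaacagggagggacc
C3ar1 (chr6:122856158-122856407): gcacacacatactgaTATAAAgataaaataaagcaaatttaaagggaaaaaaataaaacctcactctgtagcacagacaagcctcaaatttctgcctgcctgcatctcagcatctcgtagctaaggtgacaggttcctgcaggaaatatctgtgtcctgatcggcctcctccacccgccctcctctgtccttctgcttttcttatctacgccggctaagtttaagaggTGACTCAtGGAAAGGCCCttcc
C5ar1 (chr7:16259339-16259588): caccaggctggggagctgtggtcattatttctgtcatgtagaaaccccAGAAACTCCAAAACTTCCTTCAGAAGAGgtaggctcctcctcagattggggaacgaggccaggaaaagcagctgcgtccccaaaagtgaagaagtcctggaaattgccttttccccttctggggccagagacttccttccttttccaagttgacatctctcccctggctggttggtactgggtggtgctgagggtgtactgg
Windows were found for 6 of the 9 genes, and none for C1qa, Cfb and Serping1. Motifs were searched on both strands in the 250 bases of each. The C3 window held a C/EBP motif (TTGCNNAA) from 45 to 38 bases before the start, a motif present in 9.56% of 32851 promoter windows of this length. The C3ar1 window held an AP-1 motif (TGANTCA, 6.75% of windows) 22 to 16 bases before the start, an NF-kB motif (1.41%) on the opposite strand 14 to 5 bases before it, and a TATAAA match (12.4%) 235 to 230 bases before it. The windows of C1qb and C1qc each held the PU.1 core GAGGAA, which 23.3% of windows hold. None of the 6 windows held a STAT motif (TTCNNNGAA, 7.02%) or an interferon-stimulated response element (2.98%), and the Cfp and C5ar1 windows matched no motif on the list. The AP-1 and NF-kB matches of C3ar1 do not overlap. A match describes letters and not binding.

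The C1q chains were examined first among the components. C1qa, C1qb and C1qc, which lie side by side on chromosome 4, were at 0 counts and 0 FPKM in all 6 libraries. With no read counted, a level of up to 3 counts is still possible, which is 0.154 to 0.186 CPM depending on the library, and this limit covers counting error only. The 3 chains were therefore not detectable at this depth in either group, and their proportions could not be compared. Of all gene symbols in the table, 57.5% were at 0 in every library. For Serping1, the shNC libraries held 3, 4 and 1 counts and the shTrem2 libraries 1, 0 and 1, here and throughout in the order of their replicate numbers. These values are at or next to the floor, the ranges meet at 1 count, and no fold change is given.

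C3 changed most among the 5 tested genes. The shNC libraries gave 112, 126 and 123 CPM for it, and the shTrem2 libraries 42.7, 46.5 and 42.3 CPM. Every shTrem2 library lay below every shNC library, by a margin far larger than the spread within a group. On the log2 scale the change was -1.46 with a standard error of 0.062 (edgeR adjusted p = 6.51e-10), a 2.74-fold lower level with a 95% interval from -1.59 to -1.32. Only 3.18% of the genes tested had a lower log2 fold change. Nearly all counts came from the first of the gene's 4 transcript rows, which held a mean of 2097 counts in shNC and 839 in shTrem2, so the fall does not rest on how counts were divided between transcripts.

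Cfb encodes factor B, the protease subunit of the alternative pathway C3 convertase. The shNC libraries gave 3.72, 5.82 and 5.11 CPM for it, and the shTrem2 libraries 8.49, 8.61 and 7.92 CPM. The lowest shTrem2 library was above the highest shNC library. On the log2 scale the change was 0.77 with a standard error of 0.16 (edgeR adjusted p = 0.00130), a 1.70-fold higher level. Of the genes tested, 6.98% had a higher log2 fold change. The 95% interval of Cfb, from 0.41 to 1.12, included the 1.5-fold criterion. Without shNC replicate 1 the log2 change was 0.60. Cfb was not called with glmTreat against 1.5-fold. Its counts were low, from 60 to 165 per library, and were spread over 8 transcript rows that traded places between replicates. The second row held 152 and 147 counts in shTrem2 replicates 1 and 2 and 0.06 in replicate 3, while the first row held 0, 0.62 and 150. Only the sum over rows is therefore interpreted. Cfb and C2 are neighbours on chromosome 17, and the sources used here do not say how reads over both were divided.

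Cfp encodes properdin, the stabilizer of that convertase. The control values of 46.3, 45.5 and 41.1 CPM did not overlap with the 29.3, 28.5 and 32.0 CPM of the knockdown. On the log2 scale the change was -0.57 with a standard error of 0.071 (edgeR adjusted p = 1.37e-05), a 1.48-fold lower level just under the 1.5-fold criterion. It passed that criterion without shNC replicate 3, without shTrem2 replicate 3, and when libraries were scaled by their size only. Its 95% interval, from -0.72 to -0.41, included the criterion.

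Per gene length, the balance of these components shifted. The FPKM of C3 was 11.9 ± 2.09 times that of Cfb in shNC and 2.59 ± 0.397 times in shTrem2 (SD, n = 3 each). The single ratios were 14.3, 10.4 and 11.1 in shNC and 2.14, 2.91 and 2.71 in shTrem2, which do not overlap. Their size also depends on how the counts of Cfb were divided between its transcript rows. In CPM, which are not scaled for length, C3 and Cfb averaged 120 and 4.88 in shNC. In shTrem2 they averaged 43.8 and 8.34 CPM. The ratio of C3 to Cfp was 0.756 ± 0.0848 in shNC and 0.435 ± 0.0773 in shTrem2 (SD, n = 3 each). For both ratios the two-sided exact permutation p was 0.1, the smallest that 3 libraries against 3 allow. For C3 to Cfb that p was fixed in advance, because both genes had already moved in opposite directions without overlap. It adds no support. These ratios were not among the planned comparisons.

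The anaphylatoxin receptors moved apart. C3ar1, the receptor for C3a, had control values of 11.8, 10.1 and 9.56 CPM and knockdown values of 13.4, 14.8 and 14.2 CPM. The groups did not overlap, and the log2 change was 0.43 with a standard error of 0.11 (edgeR adjusted p = 0.00488), 1.35-fold, with a 95% interval from 0.19 to 0.67. On the log2(FPKM + 0.1) scale with limma its adjusted p was 0.0578. C5ar1, the receptor for C5a, had control values of 32.2, 27.9 and 34.3 CPM and knockdown values of 24.2, 23.8 and 19.0 CPM, again without overlap. Its log2 change was -0.49 with a standard error of 0.10 (edgeR adjusted p = 8.88e-04), a 1.41-fold lower level with a 95% interval from -0.71 to -0.28. Per gene length, C5ar1 was 10.6 ± 1.15 times the level of C3ar1 in shNC and 5.59 ± 1.04 times in shTrem2 (SD, n = 3 each, FPKM ratio). The single ratios did not overlap, and the two-sided exact permutation p of 0.1 was again the smallest possible. Both facts followed from the opposite moves of the receptors without overlap, so they add no support. This ratio was not planned either. The size of this ratio depends on how the counts of C5ar1 were divided between its transcripts, since each is scaled by its own length. In CPM, which are not scaled for length, C5ar1 and C3ar1 averaged 31.5 and 10.5 in shNC. The values in shTrem2 were 22.3 and 14.1 CPM.

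**Figure D2:**
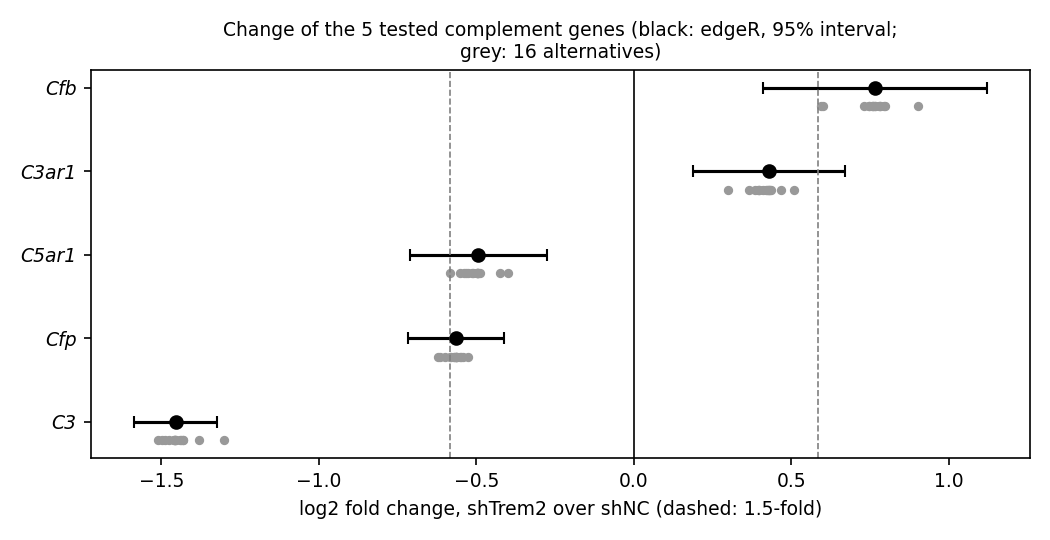
Log2 fold change (x axis, shTrem2 over shNC) of the 5 complement genes that passed the filter on low counts, with the edgeR estimate and its 95% interval in black and the values under 16 alternatives in grey below it. Dashed lines mark 1.5-fold. Each gene keeps its sign in every alternative, and C3 lies beyond 1.5-fold with its whole interval.

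The 3 annotated transcripts of C5ar1 did not move alike. The rows of the gene carry no transcript names, so they were assigned with the lengths in GENCODE M21 (GRCm38), by the order that best returned the deposited FPKM. The largest error over the 6 libraries was 0.0506%, against 0.897% for the next best order. All 3 transcripts are annotated as protein coding. Transcript A (2481 bases) and transcript C (674 bases) start at position 16259540 of chromosome 7, with the exon shown in capitals in the C5ar1 window. Transcript B (2540 bases) starts at position 16259338, directly after the last base of that window and within the first intron of the others. Transcripts A and B share the exon bases 16259145 to 16259249 and 16246745 to 16249090. Transcript A averaged 22.3 ± 3.52 CPM in the controls against 12.2 ± 2.77 CPM with the knockdown (SD, n = 3 each), a log2 ratio of -0.87. Transcript B averaged 3.77 ± 0.397 CPM in the controls against 6.24 ± 1.18 CPM with the knockdown (SD, n = 3 each), a log2 ratio of 0.73. Thus one was lower and the other higher in every shTrem2 library than in any shNC library. Of all C5ar1 counts, transcript B held 12.1%, 11.9% and 11.9% in the control libraries and 29.7%, 20.7% and 34.7% in the knockdown libraries. All 3 shTrem2 shares lay above the shNC shares, with an exact permutation p of 0.1, the smallest possible. Transcript C held 17.6 ± 3.98% in the controls and 17.6 ± 1.97% with the knockdown (SD, n = 3 each). Its level fell with that of the gene, from 5.45 ± 0.622 to 3.95 ± 0.857 CPM (SD, n = 3 each), a log2 ratio of -0.47. These shares are estimates of the authors' assembly and quantification, and no aligned reads were used here.

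**Figure D3:**
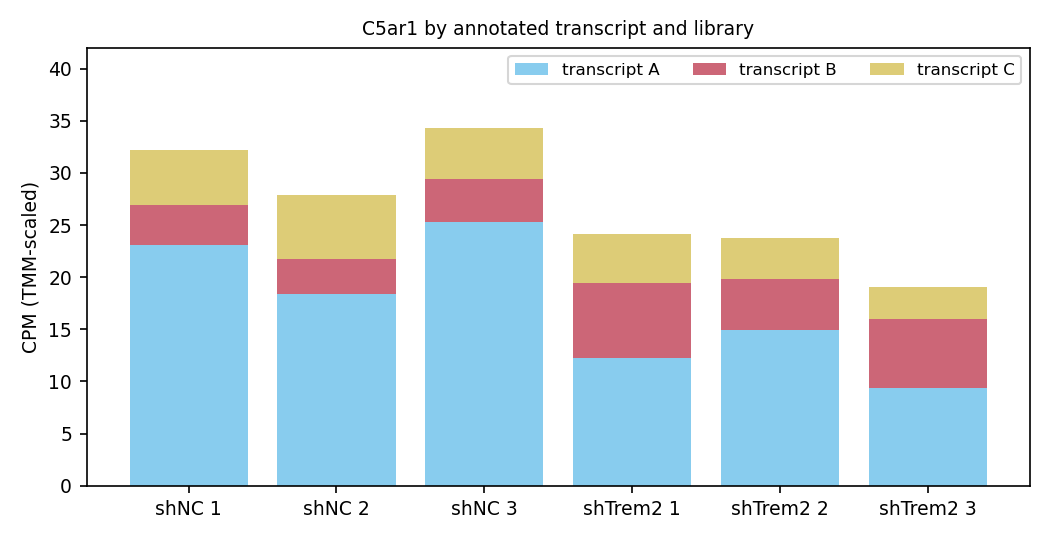
CPM (y axis, stacked) of the C5ar1 transcripts A, B and C in each of the 6 libraries. The segment of transcript A is between 18.4 and 25.3 CPM in shNC and between 9.35 and 14.9 CPM in shTrem2, while that of transcript B is larger in every shTrem2 library.

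On the scale of levels per gene length, Cfp, C5ar1 and C3 led in shNC, at 34.1 ± 1.99, 27.8 ± 0.070 and 25.7 ± 2.50 FPKM (SD, n = 3 each). C5ar1 and C3 were neighbours whose values overlapped there, since C3 in replicate 2, at 28.4 FPKM, was above C5ar1 in every shNC library. That replicate alone in shNC had counts, 14.1, in a second C3 transcript row, so this overlap may also depend on the division between transcripts. In shTrem2 the order was the same, at 22.8 ± 1.64, 19.3 ± 2.99 and 9.86 ± 1.44 FPKM, and there the values of Cfp and C5ar1 overlapped while C3 lay below both. C3ar1 and Cfb followed at 2.64 ± 0.304 and 2.22 ± 0.553 FPKM in shNC and traded places in shTrem2, at 3.47 ± 0.181 and 3.82 ± 0.293 FPKM. The values of this last pair overlapped in both groups. The place of C5ar1 and its SD of 0.070 rest on how its counts were divided between transcripts. Its FPKM adds up transcripts that are each scaled by their own length. Transcript C, at 674 bases, therefore weighs more in it than in the counts.

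Among genes whose log2 CPM averaged 3 or more, the profile over the 6 libraries that was nearest to that of C3 belonged to Chst1 (root mean square difference 0.055 on the centred log2 CPM scale), followed by Cp, which encodes ceruloplasmin, another plasma protein (0.068). The profile nearest to that of Cfb after C130050O18Rik was Xaf1, an interferon-inducible gene (0.10). Heatr6 and the lysosomal sialidase gene Neu1 were nearest to Cfp (0.028 each), Terf1 to C3ar1 (0.042) and Siah2 to C5ar1 (0.063). With only 2 groups, such likeness mainly reflects an equal difference between them.

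The rest of the pathway was followed through a list of 45 other complement genes. Of these, 23 had at most 3 counts in every library, 2 (C1rb and Cpn1) had a few more but did not pass the filter, and 20 were tested. Much of the cascade was therefore not detectable. Cfd, the protease that cleaves factor B, had 0 counts in all 6 libraries, as did the terminal components C6, C7, C8a and C8b, the C3b protease gene Cfi, the C4b-binding protein gene C4bp, the decay-accelerating factor gene Cd55 and the C3b receptor gene Vsig4. The C5 gene Hc had at most 1 count. Of the 20 tested genes, 11 had an adjusted p under 0.05 from edgeR, 5 higher and 6 lower, beside 28.8% and 28.6% of all tested genes. With the 1.5-fold criterion as well, 2 were higher and 4 lower, beside 9.46% and 12.4% of all tested genes. The median log2 fold change of the 20 was -0.31, against 0.00 over all tested genes.

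Among the regulators, Cr1l, the rodent membrane regulator also called Crry, rose by 0.22 on the log2 scale (adjusted p = 0.00176 from edgeR). Clusterin (Clu), Cd59a and Cd46 did not pass the test, with log2 fold changes of 0.18, -0.05 and -0.43.

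The receptors for C3 fragments other than C3ar1 also diverged. Itgam, the alpha chain of complement receptor 3, fell from 466 ± 5.12 to 270 ± 10.4 CPM (SD, n = 3 each), a log2 fold change of -0.78 (adjusted p = 8.43e-09 from edgeR). Itgax, the alpha chain of complement receptor 4, rose from 4.90 ± 1.39 to 29.6 ± 3.55 CPM (SD, n = 3 each), a log2 fold change of 2.58 (adjusted p = 1.37e-08 from edgeR). Their common beta chain Itgb2 fell by 0.32 on the log2 scale (adjusted p = 2.23e-05 from edgeR). Cd93, once described as a C1q receptor, fell by 2.55 on the log2 scale, with 19 to 22 counts per library in shNC and 1 to 7 in shTrem2. C5ar2, the second C5a receptor, was at 8 to 15 counts per library, and its log2 fold change of -0.30 had a 95% interval from -1.14 to 0.54.

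Of the 8 tested genes of the classical and lectin pathways, 3 were lower and 1 was higher at an edgeR adjusted p under 0.05, where the shares of all tested genes were 28.6% and 28.8%. C1s2, a C1s protease gene, averaged 1.64 ± 0.257 CPM in the controls against 0.588 ± 0.235 CPM with the knockdown (SD, n = 3 each; log2 fold change -1.47, adjusted p = 0.00312 from edgeR). Its paralog C1s1 had a log2 fold change of 0.26 on counts that did not pass the test. Its FPKM went the other way, at 1.30 ± 0.298 against 0.737 ± 0.211 (SD, n = 3 each), and it was called lower with limma on log2(FPKM + 0.1). Reads of such paralogs may be shared. C1ra rose by 0.42 on the log2 scale (adjusted p = 3.24e-04 from edgeR). C2, C4a and C4b had log2 fold changes of -1.16, -0.89 and -0.63, none of which passed edgeR's test on all 6 libraries. C2 was called with limma-voom and without shTrem2 replicate 2, and C4a without shTrem2 replicate 1. C4a and C4b are near-identical copies. Masp2, the protease that cleaves C4 and C2 in the lectin pathway, fell by 1.26 on the log2 scale (adjusted p = 0.00257 from edgeR) and was not called in either limma fit on FPKM. Ficolin A (Fcna), a recognition molecule of that pathway, fell by 0.55 on the log2 scale (adjusted p = 0.00791 from edgeR).

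**Figure D4:**
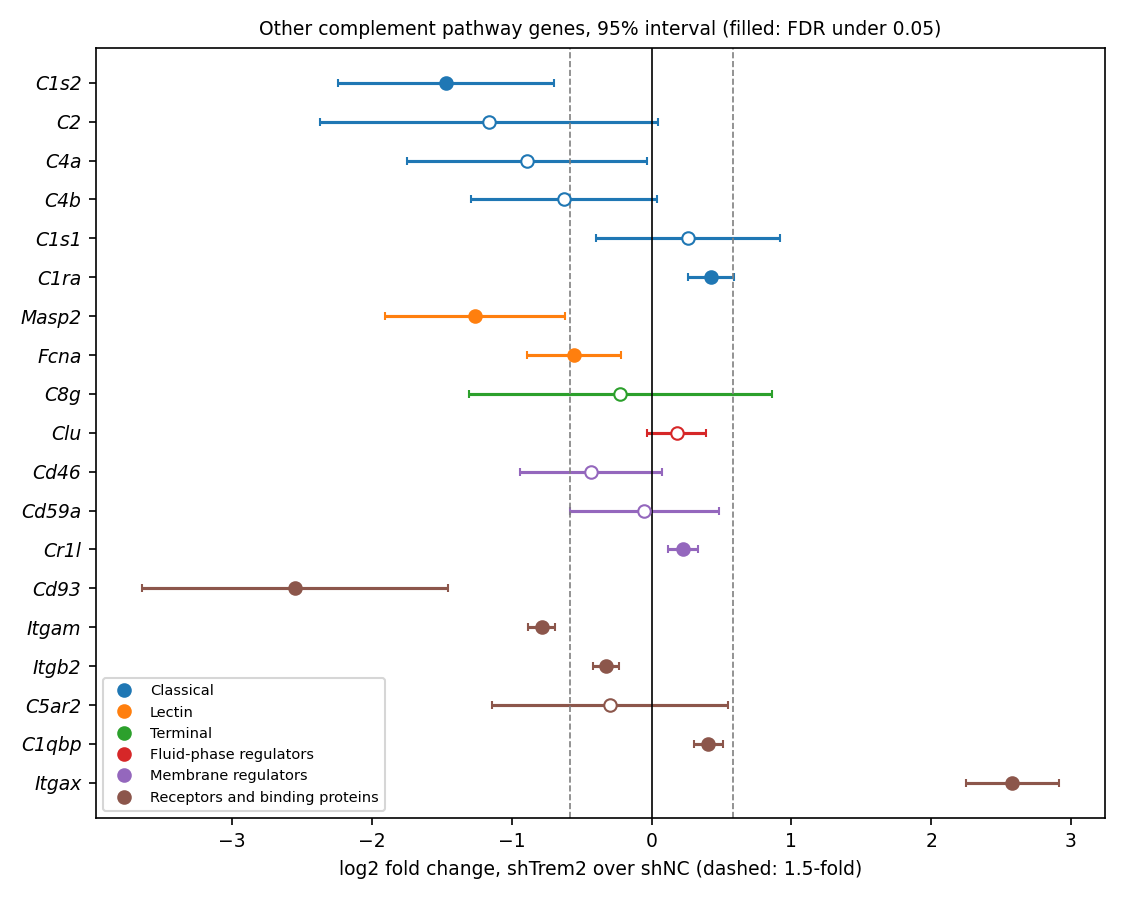
Log2 fold change (x axis, shTrem2 over shNC) with its 95% interval for tested genes of the complement pathway list, coloured by role. Filled points have an adjusted p under 0.05 and dashed lines mark 1.5-fold. Itgax lies beyond 1.5-fold to the right, and Cd93, C1s2, Masp2 and Itgam lie beyond it to the left with filled points.

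Tubular epithelial cells can express C3, Cfb and Serping1, and debris of such cells was added to both groups. Of 15 tubular epithelial markers, 9 were at 0 in every library, among them Cdh1, Epcam, Krt8, Krt18 and Havcr1. The highest count of the list was 50, for Aqp1, and the summed level lay between 0.665 and 1.24 CPM in shNC and between 2.26 and 2.92 CPM in shTrem2. Aqp1 carried most of that gap, at 0.451 against 2.20 CPM on average, while Lrp2, the other marker detected, averaged 0.363 against 0.139 CPM and was not tested. Their part in the C3 and Cfb results was not tested. The hepatocyte markers Alb, Apoa1 and Ttr were at 0 in all 6 libraries. The knockdown and any further difference between the transduced lines cannot be told apart in this design.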

How the data were processed

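RNA of 6 libraries was sequenced from a stranded, polyA-selected preparation. The submitters' processing notes name fastp, HISAT2, StringTie and the build GRCm39. The counting tool and annotation release are not given in the sources used here. The authors deposited estimated counts per transcript row, labelled by symbol, and FPKM per gene, and their group means were not used. Estimated counts were summed per symbol and rounded. Rows without a symbol held 0.908% to 1.12% of a library and were left out. Genes passing filterByExpr were tested with edgeR 4.0.16 in R 4.3.3 (TMM, quasi-likelihood test, Benjamini-Hochberg adjustment, no covariates), with limma 3.58.1 and DESeq2 1.42.0 among the alternatives, and the procedure was tested on simulated data. A called gene had an FDR under 0.05 and a fold change over 1.5, the study's criteria. A gene with at most 3 counts in every library was taken as not detected. The paired check compared deviations from the group means between equally numbered libraries. The members and lists were chosen with earlier results of these data known. Beyond the members and Trem2, named genes were the called genes of the list, up to 12 by size of change, and the 3 nearest profiles of each member, of which some are given. Other list genes, markers and the C5ar1 transcripts were named after their values were seen. Promoter sequences are from RefSeq (GRCm38.p6). A tested gene of the pathway list is counted but not reported here.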

Additional observations from a re-analysis of the deposited data

How the results depend on the processing

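The log2 fold changes of C3, C5ar1, Cfb and Cfp kept their sign and an adjusted p under 0.05 in all 16 alternatives to the edgeR fit. That of C3ar1 kept its sign, but its adjusted p was 0.0578 with limma on log2(FPKM + 0.1), where the log2 fold change was 0.38. The range over the fits that left out one replicate was -1.51 to -1.43 for C3, 0.37 to 0.51 for C3ar1, -0.58 to -0.40 for C5ar1, 0.60 to 0.90 for Cfb and -0.62 to -0.53 for Cfp. The fold threshold moved the counts of calls most, by its construction. Of all genes, 2951 were called, against 1339 with a fold change over 2, 7763 with no fold threshold and 1515 with glmTreat, and of the 9 complement genes 2 were called, against 1, 5 and 1. Of the pathway list 6 were called, 11 with no fold threshold and 3 with limma on log2(FPKM + 1). Leaving out one replicate gave 2789 to 3105 calls over all genes, 2 to 3 among the 9 and 6 to 8 in the list, where the third member was Cfp without shNC replicate 3 and without shTrem2 replicate 3. The replicate block gave 2911 calls over all genes, 2 among the 9 and 6 in the list. Equally numbered libraries did not deviate together across all tested genes (correlations 0.0062, -0.0044 and 0.0066). A pairing that touches only some genes would not show in this check. The difference in the share of C5ar1 transcript B, 16.4 percentage points, lay between 13.2 and 20.3 without one replicate, a check chosen after seeing the data. The planned comparison of C1q chain shares gave no value, because no chain was detected. Depth limits the genes with few counts: C2, C4a and C5ar2, with at most 12, 23 and 15 counts in a library, had 95% intervals that spanned more than 1.5-fold. Called genes with few counts had wide intervals too. That of Cd93, with at most 22 counts, was -3.65 to -1.46. That of C1s2, with at most 34, was -2.25 to -0.70. Neither was called with a filter of at least 10 counts in every library, nor with limma on log2(FPKM + 1).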
